A study of Mus musculus with 4 samples.

Results

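The genes described here are 10 whose transcript level differed between genotypes in oligodendrocyte nuclei of the mouse hypothalamus, followed across the cell types of that tissue. They are Dpyd, Tmem117, Gab2, Etv1, Kif13b, Arsg and the long intergenic non-coding RNA Gm44866, which were lower in the mutant, and Myrip, Arhgap15 and Nckap5, which were higher. These 10 of 32285 measured genes were chosen by their genotype difference in the oligodendrocyte sums. That difference is given below as a description, and nothing is concluded from the test results printed with it. The data are single-nucleus RNA sequencing of hypothalamus from adult male mice on the C57/BL6NCr background, 6 wild-type mice and 6 TRα1+m mice, which are heterozygous for the R384C change of the thyroid hormone receptor TRα1. The change is not restricted to a cell type, so effects that start in oligodendrocytes and effects that reach them from other cells cannot be told apart. Each library pooled nuclei from 3 mice, and each of 2 experimental repeats supplied 1 library per genotype. The pool is the replicate, so n = 2 per genotype throughout, and single mice cannot be told apart within a library.

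TRα1 is a nuclear receptor that binds DNA together with the retinoid X receptor, at response elements built from copies of the hexamer AGGTCA. It activates target genes when it holds the hormone T3 and represses them when it does not, and the mutant receptor binds T3 with lower affinity. Thyroid hormone is known for promoting the step from oligodendrocyte precursor cell (OPC) to myelinating oligodendrocyte. The listed genes encode products of different kinds. Dpyd encodes the enzyme that starts the breakdown of uracil and thymine, Arsg a lysosomal sulfatase that acts on heparan sulfate, and Tmem117 a protein that spans the membrane several times. Gab2 encodes a docking protein that links receptor tyrosine kinases to Shp2 and PI3-kinase, and Etv1 an ETS family transcription factor. Kif13b encodes a kinesin-3 motor that walks along microtubules, Myrip a linker between Rab27 and myosin motors, Arhgap15 a GTPase-activating protein for Rac, and Nckap5 a protein named for its binding to the adaptor Nck.

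The genes lie on 9 chromosomes of GRCm38, the build on which the reads were counted, and only Gab2 and Gm44866 share one, chromosome 7. Counting included introns, and 9 of the 10 are long genes, from 91.1 kb for Etv1 to 917 kb for Nckap5, with Dpyd at 871 kb, Arhgap15 at 647 kb and Tmem117 at 467 kb. The median length was 200 kb for the 10 genes and 27.2 kb for the genes tested in oligodendrocytes. Gm44866 is the exception at 15.0 kb (chromosome 7, 119720811 to 119735760, minus strand), and it ends 13 bases from the neighbouring gene Thumpd1 on the same strand. Promoter windows of RefSeq (GRCm38.p6, 250 bases upstream of an annotated start) were found for 7 of the 10 genes, 11 windows in all. The hexamer AGGTCA, searched on both strands, was in 1 of these 11 windows and in 14.0% of all 32851 promoter windows. The direct repeat of this hexamer with a spacer of 4 bases, known as DR4 and searched on both strands, was in none of the 11 and in 0.0152% of all windows. The windows shown are that of Arhgap15 because it holds the hexamer, and those of Tmem117 and Myrip because these genes had the most negative and the most positive difference. The first 300 of 391 bases of the Gm44866 transcript (GENCODE M21, GRCm38) are shown because this gene is known only by its annotation. Capitals mark the hexamer, read as TGACCT because it lies on the opposite strand, beginning 8 bases before the annotated start. Promoter windows alone were searched, and the same letters in the Gm44866 transcript are not marked.
Arhgap15 (chr2:43748574-43748823, plus strand): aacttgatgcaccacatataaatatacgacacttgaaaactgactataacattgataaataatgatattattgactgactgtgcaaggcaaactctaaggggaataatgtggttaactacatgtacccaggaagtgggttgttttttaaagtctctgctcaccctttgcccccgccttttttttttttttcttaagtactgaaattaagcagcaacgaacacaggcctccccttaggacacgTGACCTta
Tmem117 (chr15:94628935-94629184, plus strand): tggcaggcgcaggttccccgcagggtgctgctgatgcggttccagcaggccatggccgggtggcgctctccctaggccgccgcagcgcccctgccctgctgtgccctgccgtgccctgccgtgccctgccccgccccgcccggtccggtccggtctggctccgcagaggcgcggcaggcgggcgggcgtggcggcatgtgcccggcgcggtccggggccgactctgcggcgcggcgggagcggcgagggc
Myrip (chr9:120303823-120304072, plus strand): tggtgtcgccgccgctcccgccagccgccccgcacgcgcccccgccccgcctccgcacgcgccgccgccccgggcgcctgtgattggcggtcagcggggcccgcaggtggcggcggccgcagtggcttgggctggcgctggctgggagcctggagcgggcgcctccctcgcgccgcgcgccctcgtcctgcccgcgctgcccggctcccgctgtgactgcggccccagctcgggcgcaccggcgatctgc
Gm44866 transcript: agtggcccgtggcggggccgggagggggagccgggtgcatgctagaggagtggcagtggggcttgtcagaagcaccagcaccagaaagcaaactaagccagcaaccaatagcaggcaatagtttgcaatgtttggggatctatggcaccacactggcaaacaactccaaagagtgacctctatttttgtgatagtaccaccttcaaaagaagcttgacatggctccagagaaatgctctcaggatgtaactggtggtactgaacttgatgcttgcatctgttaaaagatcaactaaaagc
The Tmem117 and Myrip windows had a GC content of 80.0% and 82.4%, with 33 and 41 CG dinucleotides. The Arhgap15 window had 38.4% and 4, against a median of 6 CG dinucleotides over all windows. The genes with the most negative and the most positive difference thus both have a CG-rich window here, and Arhgap15 does not.

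Oligodendrocytes were 6135 of 56386 annotated nuclei, 1396 to 1685 per library with 2525236 to 2713480 unique molecular identifiers (UMIs) in all. The myelin genes Mag, Mobp and Mog served as oligodendrocyte markers, in counts-per-million of UMIs (CPM, scaled with TMM factors). In oligodendrocytes Mag was at 739.6 and 1367 CPM in wild type against 687 and 1716 CPM in TRα1+m, and at most 96.0 CPM in the other cell types tested. Mog was at 727 and 1059 against 575 and 1189 CPM, and at most 57.3 CPM elsewhere. Both were higher in repeat 2 of each genotype and overlapped between genotypes. Mobp was at 817 and 793 against 838 and 929 CPM, without overlap, and at most 207 CPM elsewhere. All 3 markers were thus highest in the nuclei labelled oligodendrocytes. A sum of 8 neuronal markers in the oligodendrocyte nuclei was 1404 and 1308 CPM in wild type and 1274 and 896 CPM in TRα1+m, so it was lower in both mutant libraries. Its part in the differences below was not tested. Sums of OPC, newly formed oligodendrocyte, astrocyte, microglia and vascular markers there overlapped between genotypes. Between 44 and 64 cell barcodes were shared by each pair of libraries.

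Tmem117 was the gene with the largest difference. It stood at 289 and 355 CPM in the wild-type oligodendrocyte libraries and at 26.9 and 34.4 CPM in the TRα1+m libraries, a 10.5-fold lower mean in the mutant (log2 fold change -3.39, SE 0.22). Dpyd was at 271 and 351 CPM in wild type and at 37.0 and 42.6 CPM in TRα1+m, 7.81-fold lower (log2 fold change -2.97, SE 0.22). For both genes the lowest wild-type library lay several-fold above the highest mutant library.

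The other lower protein-coding genes ranged from a transcription factor to a motor. Etv1 was at 78.4 and 68.2 CPM in wild type and at 17.6 and 16.0 CPM in the mutant, 4.37-fold lower (log2 fold change -2.12, SE 0.21). Arsg was at 140.3 and 174 CPM in wild type and at 36.3 and 66.8 CPM in the mutant, 3.05-fold lower (log2 fold change -1.61, SE 0.31). Arsg had the widest spread of the lower genes, with both genotypes higher in repeat 2. Gab2 was at 162 and 167 CPM in wild type and at 54.2 and 59.8 CPM in the mutant, 2.89-fold lower (log2 fold change -1.53, SE 0.16). Kif13b was the most abundant, at 604 and 545 CPM in wild type and at 221 and 257 CPM in the mutant, 2.40-fold lower (log2 fold change -1.27, SE 0.17). Gm44866 was at 119 and 95.1 CPM in wild type and at 24.7 and 23.4 CPM in the mutant, 4.46-fold lower (log2 fold change -2.15, SE 0.21).

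The 3 higher genes differed in their wild-type level, which was lowest for Myrip and highest for Nckap5. Myrip was at 13.1 and 7.78 CPM in wild type, from 34 and 22 UMIs, and at 72.1 and 107 CPM in TRα1+m, 8.57-fold higher (log2 fold change 3.10, SE 0.34). Arhgap15 was at 34.2 and 29.7 CPM in wild type and at 153 and 176 CPM in the mutant, 5.14-fold higher (log2 fold change 2.36, SE 0.19). Nckap5 was at 105 and 158 CPM in wild type and at 425 and 436 CPM in the mutant, 3.28-fold higher (log2 fold change 1.71, SE 0.23).

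**Figure D1:**
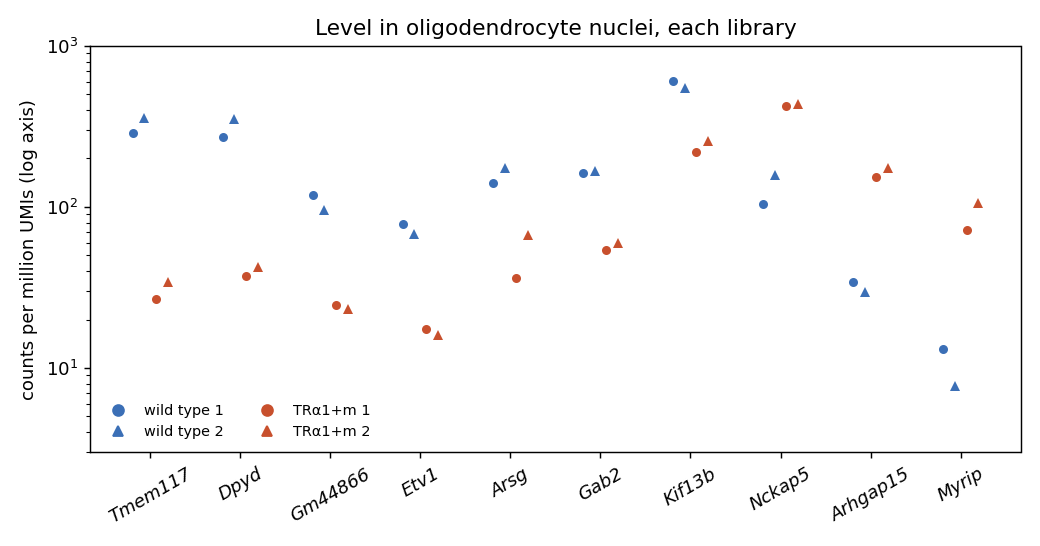
Level of the 10 genes in oligodendrocyte nuclei, as counts-per-million of UMIs on a log axis, 1 point per library (blue wild type, orange TRα1+m, circles repeat 1, triangles repeat 2). The genotypes lie apart for each gene, from Tmem117 at 289 and 355 against 26.9 and 34.4 to Myrip at 13.1 and 7.78 against 72.1 and 107. For some genes the 2 libraries of a genotype are spread, as for Arsg in TRα1+m at 36.3 and 66.8.

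The genotypes did not overlap for any of the 10 genes, which their choice fixes. Of 12630 genes tested, 15.9% were lower without overlap and 15.9% higher without overlap. At an adjusted p of 0.05 (edgeR quasi-likelihood test, Benjamini-Hochberg) the fit passed 13 genes, 0.103%, of which 5 are on the list (Dpyd, Tmem117, Arhgap15, Gm44866 and Etv1), and with the repeat as a block it passed 4.35% of the genes and all 10 of the list. With a wild-type library left out fewer genes passed, and with a TRα1+m library left out more did, on the list and over all genes alike. Nothing is read from these counts, since the list came from the same contrast. Kif13b, Nckap5, Arsg, Gab2 and Myrip did not pass it without the block. Library sums alone cannot tell fewer nuclei with a transcript from less transcript per nucleus. The shares below do not settle this either, since in counts this sparse a share largely follows the mean count.

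The same UMIs were also read as the share of oligodendrocyte nuclei that held at least 1 of each gene. Each nucleus was thinned to 1000 UMIs, which kept 2950 wild-type and 3023 TRα1+m nuclei and left out 87 and 75 with fewer. A UMI of Tmem117 was found in 22.9% and 27.7% of wild-type nuclei and in 2.5% and 2.4% of mutant nuclei. For Dpyd the shares were 18.3% and 24.3% against 3.5% and 3.4%. Kif13b, the most widely detected, was found in 41.4% and 42.3% against 18.9% and 20.0%. In the other direction, Nckap5 was found in 7.7% and 8.3% of wild-type nuclei and in 29.7% and 29.7% of mutant nuclei, and Arhgap15 in 2.7% and 2.5% against 12.6% and 13.6%. Myrip was found in 1.6% and 0.5% of wild-type nuclei against 6.5% and 10.1% of mutant nuclei. For all 10 genes the shares did not overlap between genotypes, in whole and in thinned nuclei, which the choice of the genes fixes as well.

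These shares lay above what other cell types showed at the same depth for the genes that are rare there. Arhgap15 was found in 0.223% to 0.509% of astrocytes, and Gm44866 in 0% to 0.0692% of Neurons_1 nuclei, the main neuronal cluster. In oligodendrocytes Gm44866 was found in 10.1% and 8.7% of wild-type nuclei and in 2.2% and 1.7% of mutant nuclei. Median depth before thinning was 1493 to 1812 UMIs in oligodendrocytes, 1683 to 2212 in astrocytes and 3797 to 5227 in Neurons_1. The intervals in the plot of shares cover counting error only. For Nckap5 the highest wild-type nucleus held 24 of 273 UMIs in repeat 1 and 44 of 446 in repeat 2, where the mutant libraries reached at most 13 and 17 in a nucleus.

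**Figure D2:**
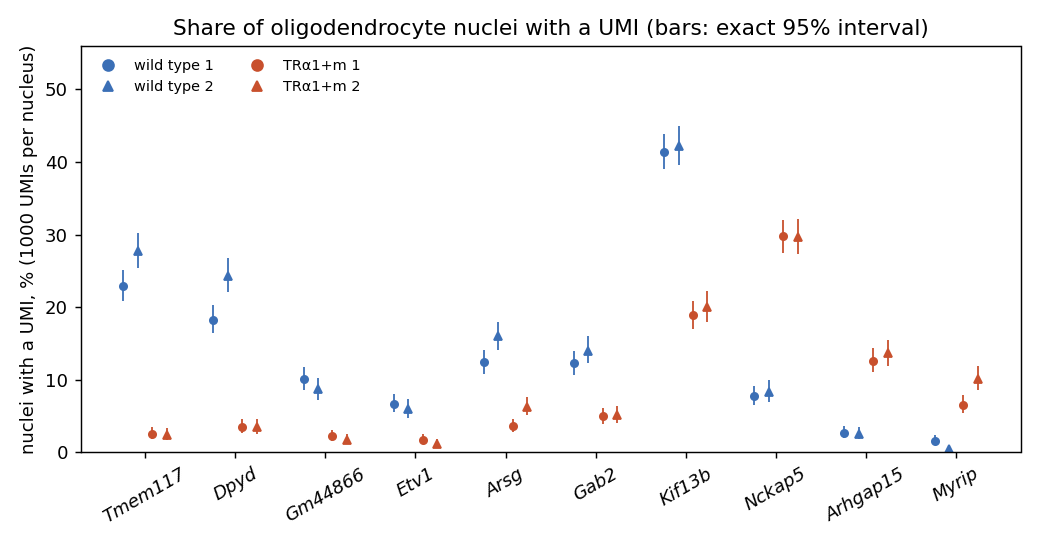
Share of oligodendrocyte nuclei, in percent, with at least 1 UMI of each gene after thinning each nucleus to 1000 UMIs. Points are libraries (blue wild type, orange TRα1+m, circles repeat 1, triangles repeat 2) with exact 95% binomial intervals, which keep apart for the genotypes of each gene, as for Nckap5 at 7.7% and 8.3% against 29.7% and 29.7%.

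Within a library the genes were at most weakly related from nucleus to nucleus. Across the 45 pairs of the 10 genes, Pearson correlations over thinned nuclei lay between -0.074 and 0.077 in the 4 libraries, which in counts this sparse is no finding. A nucleus without a UMI of any of the 7 lower genes accounted for 26.1% and 19.6% of the nuclei in wild type, against 68.4% and 65.8% in the mutant. For the 3 higher genes together these shares were 88.4% and 88.9% in wild type, against 56.6% and 54.8% in the mutant.

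Outside oligodendrocytes the same genes were well measured in most cases, and none passed the adjusted p of 0.05 in the other main cell types (edgeR quasi-likelihood test and, likewise, DESeq2). The low-count filter passed 10 of them in Neurons_1, 9 in astrocytes and 9 in microglia and macrophages, and 8 in OPCs. Over all genes edgeR without a block called 0% in each of these 4 cell types. DESeq2 called 0.00889% in OPCs, 0.00502% in Neurons_1, 0.00676% in astrocytes and 0% in microglia and macrophages, so the counts for the listed genes were near the background in both. Since the genes were named for a difference seen only in oligodendrocytes, the lack of calls elsewhere is no independent evidence. The difference between cell types was not tested for the same reason, and the intervals are given instead.

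In Neurons_1, 1 of the 10 genes, Tmem117, had an unadjusted p below 0.05, against 0.969% of all genes there. Its level was 165 and 168 CPM in wild type and 132 and 137 CPM in TRα1+m, a log2 fold change of -0.31 (95% interval -0.57 to -0.05, adjusted p 1.00). Dpyd, at 269 and 271 against 273 and 267 CPM, had a log2 fold change of 0.00 with an interval of -0.23 to 0.24. This range holds no change of the size seen for Dpyd in oligodendrocytes, where the mutant mean was 7.81-fold lower. Gab2 was at 184 and 192 against 164 and 176 CPM (-0.14, interval -0.41 to 0.13), Myrip at 63.3 and 64.5 against 53.7 and 63.7 CPM (-0.12, interval -0.49 to 0.25), and Kif13b at 71.5 and 62.2 against 67.0 and 63.2 CPM (-0.04, interval -0.39 to 0.31).

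The other genes were less tightly bounded in neurons. The interval for Nckap5 ran from -0.48 to 0.52 and that for Arhgap15 from -0.47 to 0.83. Gm44866 was nearly absent, with 17 and 28 UMIs in wild type against 10 and 1, and its interval of -3.93 to 0.11 includes the oligodendrocyte value of -2.15. Tmem117, Gab2 and Gm44866 did not overlap between genotypes in Neurons_1, 3 of 10 against 21% of all genes. Gm44866 passed the low-count filter there only through the wild-type libraries. That favours its separation, so it is no support in this count.

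In astrocytes the genotypes did not overlap for Etv1, Arsg, Arhgap15 and Nckap5, 4 of 9 against 24.6% of all genes, each on the same side as in oligodendrocytes. Etv1 was at 70.6 and 63.0 CPM in wild type and at 55.0 and 43.1 CPM in TRα1+m (log2 fold change -0.44, interval -0.92 to 0.03). Arsg was at 12.7 and 14.1 against 6.95 and 9.90 CPM (-0.68, interval -1.41 to 0.06). Arhgap15 rested on 9 and 10 against 17 and 19 UMIs (1.02, interval -0.14 to 2.18). It passed the low-count filter here only through the mutant libraries, which favours its separation and its side. Arhgap15 is therefore no support in the count of 4. Nckap5 was at 599 and 552 against 650.0 and 689 CPM (0.22, interval -0.10 to 0.53). The adjusted p was 1.00 for each of these 4 genes. In the astrocyte sub-cluster without tanycytes, Etv1 passed when the repeat was fitted as a block (log2 fold change -0.48, edgeR adjusted p 0.0483, with 1.74% of genes called in that fit), and not without the block.

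In OPCs, the stage before oligodendrocytes, the genotypes did not overlap for Tmem117, Dpyd and Gab2, 3 of 8 against 26.8% of all genes. Tmem117 was at 207 and 208 CPM in wild type and at 157 and 185 CPM in TRα1+m (log2 fold change -0.28, interval -0.68 to 0.13). Dpyd was at 932 and 868 against 846 and 852 CPM (-0.08, interval -0.38 to 0.22). Gab2 was at 366 and 344 against 336 and 339 CPM (-0.07, interval -0.43 to 0.29), and Myrip at 39.3 and 41.0 against 45.6 and 35.2 CPM (0.01, interval -0.58 to 0.61). Arsg rested on 7 to 14 UMIs per library in OPCs and its interval, -1.57 to 1.12, was wide. In microglia and macrophages 0 of 9 genes were without overlap, against 27.4% of all genes, and the widest interval, for Myrip, ran from -1.37 to 1.17.

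**Figure D3:**
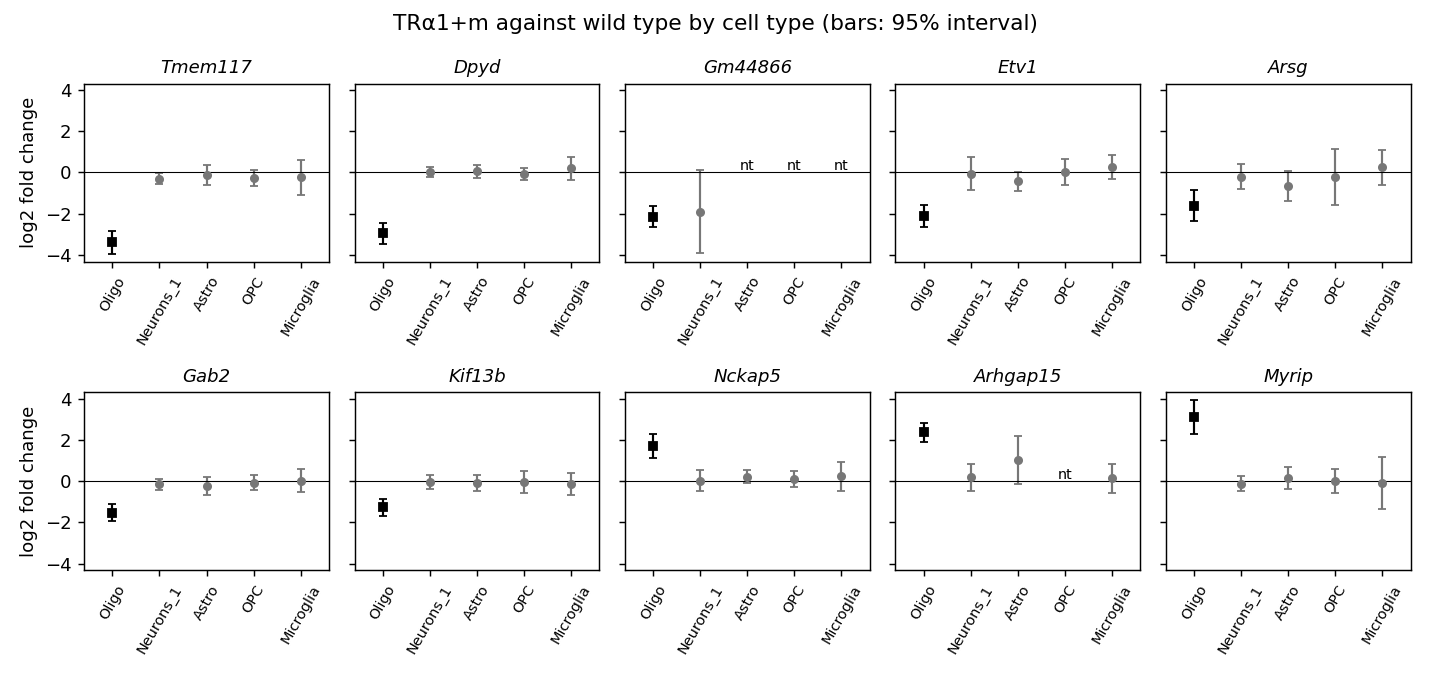
Log2 fold change of TRα1+m against wild type with its 95% interval for each gene in 5 cell types, from edgeR fits of summed UMIs (n = 2 libraries per genotype). Black squares are oligodendrocytes, where the genes were chosen, and grey circles the other cell types. The letters nt mark genes under the low-count filter. The squares lie between -3.39 and 3.10, and for Dpyd in Neurons_1 the interval is -0.23 to 0.24.

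The order of cell types by level differed between the genotypes for several genes. Levels are compared here within a gene only. In wild type, oligodendrocytes had the highest mean of 5 cell types for Tmem117, Kif13b, Arsg and Gm44866. OPCs had the highest for Dpyd, Etv1 and Nckap5, microglia and macrophages for Gab2 and Arhgap15, and astrocytes for Myrip. In TRα1+m, oligodendrocytes had the highest mean for Kif13b, Arsg, Gm44866, Arhgap15 and Myrip. These orders are by CPM, and nuclei of Neurons_1 held more UMIs. In UMIs per whole nucleus, wild-type Tmem117 was higher in Neurons_1 (0.704 and 0.927) than in oligodendrocytes (0.458 and 0.720) in each repeat. Kif13b, Arsg and Gm44866 were higher in wild-type oligodendrocytes than in Neurons_1 on that scale too.

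Tmem117 moved from the highest of 5 in wild type (322 ± 47.0 CPM, SD, n = 2) to the fourth in the mutant (30.7 ± 5.30), where it overlapped with microglia and macrophages (28.8 ± 9.18). Dpyd in wild-type oligodendrocytes (311 ± 57.0 CPM) overlapped with Neurons_1 (270.0 ± 1.68) and was second to OPCs (900 ± 45.2). In the mutant it was the lowest of the 5 cell types (39.8 ± 3.96). Etv1 was the third of 5 in wild type (73.3 ± 7.22 CPM), where it overlapped with astrocytes (66.8 ± 5.37). It was lowest in the mutant, with 16.8 ± 1.13 CPM in mutant oligodendrocytes overlapping with Neurons_1 at 19.0 ± 7.30. Gab2 was lowest in oligodendrocytes in both genotypes, and Kif13b highest in both, at 575 ± 41.7 and 239 ± 25.7 CPM.

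Among the higher genes, Myrip was lowest in wild-type oligodendrocytes (10.4 ± 3.74 CPM) and highest in the mutant ones (89.3 ± 24.3), where it overlapped with astrocytes (80.3 ± 20.8). Arhgap15 was at 110 ± 22.2 CPM in wild-type microglia and macrophages, above oligodendrocytes at 32.0 ± 3.20, and the mutant oligodendrocytes reached 164 ± 16.4, overlapping with mutant microglia and macrophages (121 ± 51.1). Nckap5 in wild-type oligodendrocytes (131 ± 37.3 CPM) overlapped with Neurons_1. In mutant oligodendrocytes (430 ± 7.67) it lay above Neurons_1 and below astrocytes and OPCs.

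**Figure D4:**
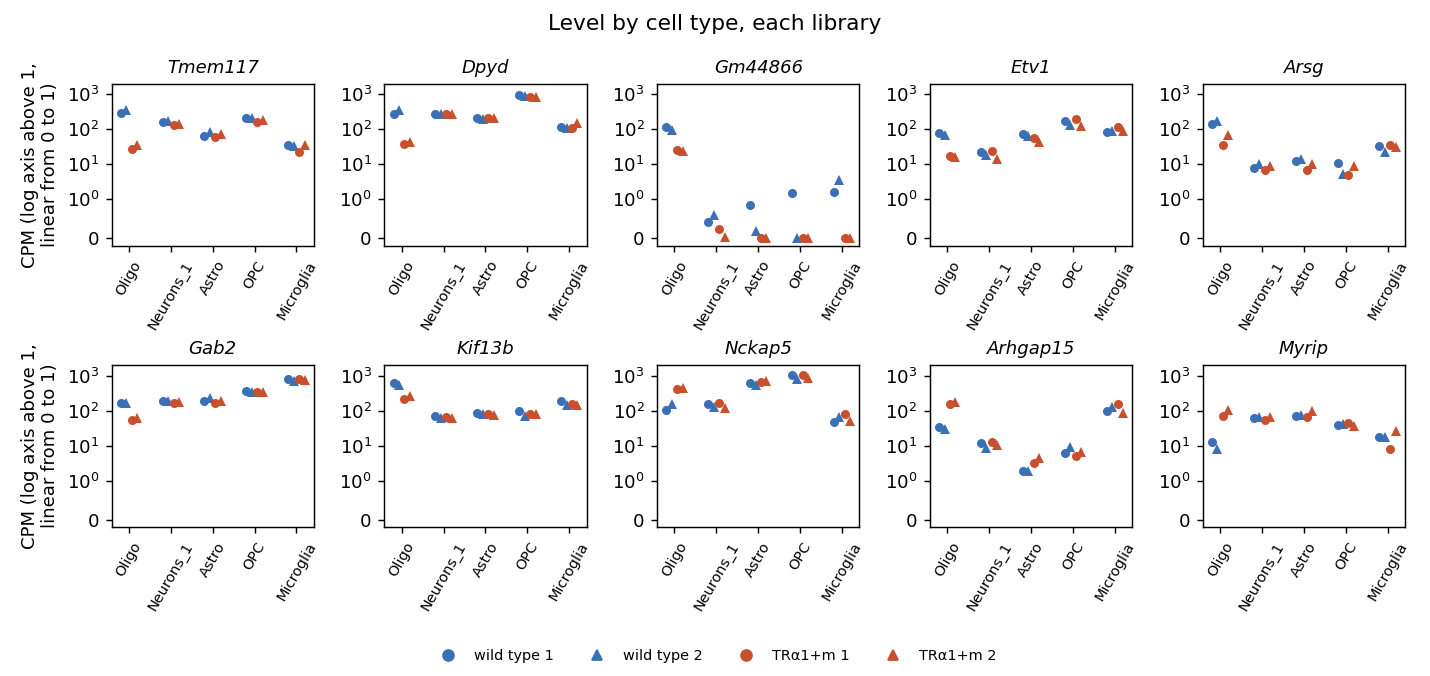
Level of each gene in 5 cell types, 1 point per library, in counts-per-million of UMIs on an axis that is logarithmic above 1 and linear from 0 to 1. Blue is wild type and orange TRα1+m. The colours part in oligodendrocytes, at the left of each panel, and Gm44866 is at or below 3.44 CPM in every other cell type.

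Tmem117 was lower in TRα1+m in each of 12 neuronal sub-clusters, which hold nuclei of the same 4 libraries and so are no independent replicates. The log2 fold changes ran from -1.01 to -0.12 with a median of -0.33, and the genotypes did not overlap in 10 of the 12. Of 5679 genes tested in all 12, 3.77% were lower in all 12 and 0.546% were lower without overlap in 10 or more. Tmem117 was singled out here after its values were seen. The widest gap was in the oxytocin and vasopressin sub-cluster, with 156 and 214 CPM in wild type and 92.4 and 89.5 CPM in TRα1+m (log2 fold change -1.01, SE 0.25, unadjusted p 0.0031 and adjusted p 1.00 in edgeR). The exceptions to separation were the MCH and somatostatin sub-clusters. Its highest level was in the sub-cluster labelled Orexin+, at 381 and 337 against 254 and 316 CPM.

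**Figure D5:**
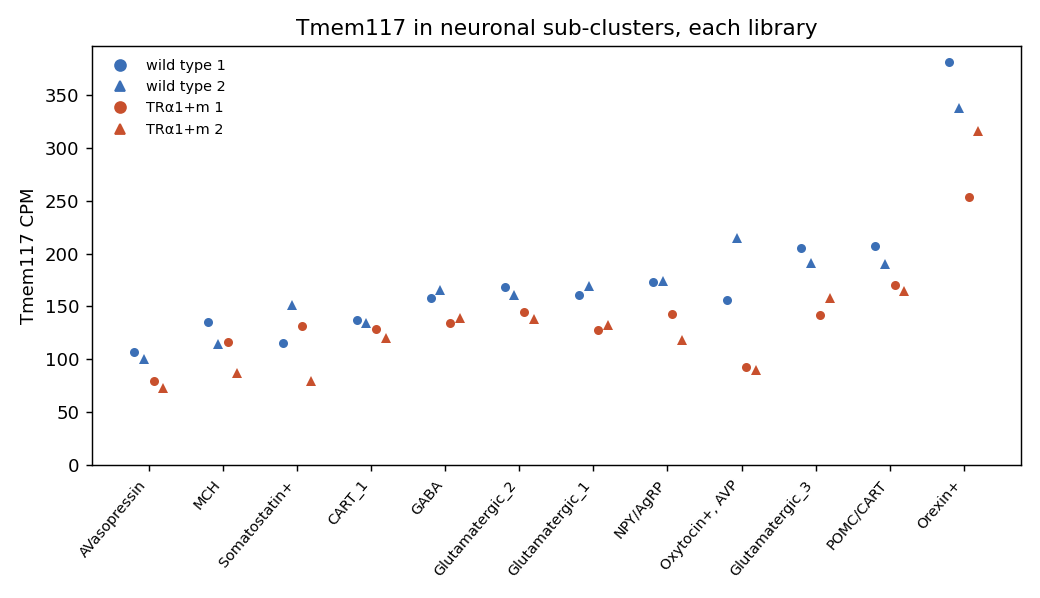
Tmem117 level, in counts-per-million of UMIs, in 12 neuronal sub-clusters ordered by the wild-type mean, 1 point per library (blue wild type, orange TRα1+m). The orange points lie below the blue ones in 10 sub-clusters, by the widest gap in the oxytocin and vasopressin sub-cluster at 92.4 and 89.5 against 156 and 214.

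No neuronal sub-cluster gave a call for a listed gene in the fit without a block, 0 of 94 tests with edgeR, against 0.00367% called over all genes and sub-clusters. An unadjusted p below 0.05 was found in 6 of the 94, against 1.7% over all genes and sub-clusters. Besides 3 for Tmem117, these were Etv1 in the CART Neurons_1 sub-cluster (17 and 24 UMIs in wild type against 4 and 4, log2 fold change -1.95, SE 0.49), and Dpyd (0.49) and Gab2 (0.69) among somatostatin neurons, both higher in the mutant there. In CART Neurons_1, Etv1 passed the low-count filter only through the wild-type libraries. That favours a lower mutant value, so Etv1 is no support in this count. Levels differed widely among neurons. Dpyd ran from 22.6 CPM in CART Neurons_1 to 1301 CPM in the oxytocin and vasopressin sub-cluster, where Myrip (256 CPM) and Arhgap15 (46.8 CPM) also had their highest neuronal level.

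The listed genes were also read in a small cluster labelled Non-neuronal cells, with 57 and 36 wild-type and 80 and 34 TRα1+m nuclei, where 3705 genes could be tested, 8 of the 10 listed among them. All 8 lay on the same side as in oligodendrocytes, as did 8 of 10 in Neurons_1 and 8 of 9 in astrocytes. In OPCs 7 of 8 did, and in microglia and macrophages 4 of 9. No share over all genes is at hand for these counts of sides. Many of the effects outside oligodendrocytes were near 0, and several changed side under other settings, as given at the end. Nothing is therefore read from the counts of sides. In the small cluster the genotypes did not overlap for 7 of 8, against 32.1% of all genes. An unadjusted p below 0.05 was found for 6 of 8, against 4.16%. Arhgap15 passed the low-count filter in this cluster only through the mutant libraries. That favours its separation and its side, so it is no support in these counts. These nuclei carried markers of both glial types. Without TMM factors, Mag, Mobp and Mog summed to 1269 to 2004 CPM in the 4 libraries, against 2077 to 3706 in oligodendrocytes and 128 to 171 in astrocytes. The 7 astrocyte markers summed to 6992 to 8738 CPM there, against 715 to 1377 in oligodendrocytes and 8641 to 12465 in astrocytes. The study saw raised doublet scores in this cluster and, although it held such doublets to be unlikely among nuclei, left the cluster out as a precaution. A genotype difference of its own and oligodendrocyte RNA in mixed nuclei cannot be told apart, and the values below are no independent evidence.

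In that cluster Tmem117 was at 261 and 311 CPM in wild type and at 41.9 and 72.9 CPM in TRα1+m, from 48 and 48 against 10 and 8 UMIs (log2 fold change -2.42, SE 0.38, edgeR adjusted p 0.152). Kif13b was at 391 and 370 against 164 and 155 CPM (-1.25, SE 0.29, adjusted p 0.459). Arhgap15 rested on 5 and 3 against 17 and 16 UMIs (2.05, SE 0.60, adjusted p 0.706). None of the listed genes passed without the block, where 0.027% of the genes did. With the repeat as a block 1.54% of genes passed, among them Tmem117 (edgeR adjusted p 1.8e-08), Kif13b (4.8e-04) and Arhgap15 (0.015). That fit leaves 1 residual degree of freedom, so these p-values lean on the spread of other genes. With wild type 1, wild type 2 or TRα1+m 2 left out, the log2 fold change of Tmem117 was -2.53, -2.28 and -2.73. The value with TRα1+m 1 left out is not given here, so these values are not its range. Dpyd was at 310 and 337 against 210 and 210 CPM (-0.63, SE 0.28), and Gab2 (-1.02, SE 0.33), Etv1 (-1.05, SE 0.67), Nckap5 (0.58, SE 0.23) and Myrip (0.93, SE 0.59) did not pass under any of these fits.

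The difference between the experimental repeats is not the contrast by which the genes were chosen. In oligodendrocytes the choice still bears on it, since genotypes that stand apart favour a small difference between repeats. The count for oligodendrocytes is therefore a description. Of the listed genes 1 of 10 differed between repeats in oligodendrocytes, Arsg, which was higher in repeat 2 (log2 fold change 0.54, SE 0.16, edgeR adjusted p 0.015), against 12.4% of all genes there. In Neurons_1, Etv1 (-0.54, adjusted p 0.023) and Nckap5 (-0.36, adjusted p 0.0050) were lower in repeat 2, 2 of 10 against 25.2%. In OPCs Etv1 (-0.56, adjusted p 0.0029) and Nckap5 (-0.33, adjusted p 0.0096) were lower in repeat 2, 2 of 8 against 11.4%, and in astrocytes 0 of 9 passed, against 20.6%. In DESeq2 the calls for Arsg in oligodendrocytes and for Etv1 and Nckap5 in OPCs were lost. Of the genes given an adjusted p, DESeq2 called 5.07% between repeats in oligodendrocytes and 3.68% in OPCs. The repeat difference of Arsg in oligodendrocytes, 0.54, was smaller than its genotype difference of -1.61.

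Relatives and partners of the listed genes were then read in oligodendrocytes, from 8 lists put together with earlier results known. Of 65 relatives tested, 0 passed the adjusted p of 0.05 in edgeR without a block, 0 in DESeq2 (against 0.61% of all genes), and 6 had an unadjusted p below 0.05, against 5.32% of all genes. With the repeat as a block 5 passed: Arsb (log2 fold change -1.30, edgeR adjusted p 1.9e-07), Chn1 (-0.85), Sos2 (-0.73), Srgap3 (0.62) and Srgap1 (0.52), against 4.35% of all genes. That fit leaves 1 residual degree of freedom. The median log2 fold change of all genes was 0.01, and the medians of the lists lay between -0.19 for sulfatases and enzymes of heparan sulfate breakdown and 0.12 for kinesin-3 motors.

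The largest value among the sulfatases was that of Arsb, which encodes the lysosomal arylsulfatase B and had a log2 fold change of -1.30 (SE 0.23, edgeR adjusted p 0.187). Arsb passed with the block and without the low-count filter (edgeR adjusted p 0.013, where 0.559% of all genes passed). With TRα1+m 1 or 2 left out, its log2 fold change was -1.12 and -1.51. The values with a wild-type library left out are not given here, so these are not its range. Galns, another lysosomal sulfatase, was at -0.81. Nckap5l, the paralogue of Nckap5, was at 1.11 (SE 0.43, adjusted p 0.892) and Nck2 at 0.18. Among Rac regulators the Rac GAP genes Chn1 and Srgap3 were at -0.85 and 0.62, on opposite sides of 0, and Srgap1 was at 0.52. Sos2, an exchange factor that binds Grb2, was at -0.73 and Gab3, a relative of Gab2, at 0.58. The largest values for the ETS factors were Etv6 at -0.49 and Etv3 at 0.37, for Rab27 effectors Sytl5 at 0.42 and Sytl2 at -0.35, for kinesin-3 motors Kif1a at 0.31 and Kif1c at -0.18, and for pyrimidine nucleoside handling Cda at -0.48 and Dck at -0.45. None of these genes passed the test without the block, apart from the Arsb values given for other settings.

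Genes next to the listed ones in the genome were read in oligodendrocytes as well. Of 23 neighbouring or overlapping genes 16 were tested, with log2 fold changes from -1.40 to 0.35. In edgeR without a block 0 passed the adjusted p, against 0.103% of all genes, so nothing is read from this count. The lowest was Slc16a6, a monocarboxylate transporter gene that overlaps Arsg on the opposite strand, with 21 and 27 UMIs in wild type and 11 and 6 in TRα1+m (adjusted p 0.684). The strand setting of the counting is not stated in the sources used here, and its bearing on the counts of Slc16a6 and Arsg was not tested. Nell2, which overlaps Tmem117 on the opposite strand, was at -0.06, and Arhgap15os, antisense to Arhgap15, had 0 UMIs in all 4 libraries. The flanking genes of Dpyd, Gm26871 and Ptbp2, were at -0.16 and 0.06. Thumpd1, which starts 13 bases from Gm44866 on the same strand, was at 0.17, beside -2.15 for Gm44866, and Hmbox1 beside Kif13b was at 0.08. Usp35 next to Gab2 was at -0.60 on 10 to 25 UMIs per library, and Gm38642 next to Myrip at -0.85 on 8 to 41.

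Across the 20 sums of 5 cell types and 4 libraries, the gene whose log2 (CPM + 1) pattern was most like that of Kif13b among 14109 genes was Arsg, and the reverse held too (Pearson r 0.968). The 20 sums share libraries, and they include the oligodendrocyte sums by whose genotype difference the genes were chosen. That choice favours likeness between listed genes that differ in the same direction, such as Kif13b and Arsg or Tmem117 and Dpyd. How far cell type and genotype differences each carry the pattern was not tested, so these values are a description. For Tmem117 the most alike were Naaladl2 (0.856), Pcolce2 (0.845) and Dpyd (0.808), and for Dpyd Pola1 (0.899), Rmi2 (0.882) and Thsd7a (0.866). Gab2 was most like Arsb (0.958), Frrs1 (0.948) and Arhgef6 (0.946), and Etv1 like Golim4 (0.868), Bach2 (0.868) and Svil (0.860). For Arsg the next were Slc7a15 (0.944) and Mbnl2 (0.940), and for Kif13b Plcl1 (0.952) and Erbin (0.946). Gm44866 was most like A230001M10Rik (0.964), 4930511M06Rik (0.963) and Tnni1 (0.962). Among the higher genes, Myrip was most like Srgap3 (0.858), Prpf3 (0.834) and Nexn (0.789), Arhgap15 like Specc1 (0.930), Enpp1 (0.930) and Plxdc2 (0.929), and Nckap5 like Diaph3 (0.924), Phactr3 (0.921) and Sema6d (0.917).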

How the data were processed

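Nuclei of the 4 libraries had been counted by the authors with Cell Ranger 5.0.1, intronic reads included, on mm10 (GRCm38). The deposited matrices hold raw UMI counts, with no normalization, for 32285 genes and 68190 barcodes, and a deposited table gives the cluster of each of the 56386 nuclei kept after the authors' filters on depth, mitochondrial reads and doublets. Clusters were used as annotated. Here UMIs were summed per library and cluster and fitted with edgeR 4.0.16 (filterByExpr, TMM, robust quasi-likelihood test, two-sided, genotype only), with Benjamini-Hochberg adjustment over all genes of the cell type and a threshold of 0.05. The fit was tried on simulated counts with the same dispersion for every gene and no difference between repeats. That trial does not test the fit under repeat differences such as those seen here. The 2 libraries per genotype leave 2 residual degrees of freedom, or 1 with the repeat as a block. The smallest two-sided p of an exact permutation is 0.333. Standard errors are the fold change divided by the square root of F. Without a block, p-values and intervals rest on the spread between the 2 libraries of a genotype, moderated by that of all genes tested. Dispersion and degrees of freedom are thus drawn in part from other genes, and an interval is not the spread of its gene alone. The libraries are pools of 3 mice from different repeats, so the difference between repeats is part of that spread.

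The members and lists were chosen with earlier results of these data known. Named genes are the 10 listed, in each list those past the threshold plus the 2 with the largest absolute log2 fold change (others at an unadjusted p below 0.05 were added after seeing values), the nearest genes on each side, and the 3 genes most alike in pattern (at least 10 CPM in a sum). The repeats pair the libraries: the study's methods give a library of each genotype to each repeat, and repeat differences correlated between genotypes (r 0.667 in Neurons_1, 0.668 in astrocytes, 0.541 in oligodendrocytes, 0.393 in microglia and macrophages and 0.494 in OPCs). The block was an alternative, beside RLE factors, no filter, DESeq2, a bias-adjusted fit, each library left out, and removal of nuclei with 3 or more UMIs of other cell types' markers. Over all genes, the median fold change on the log2 scale stayed within 0.0112 of 0. Intervals on shares are exact binomial (Clopper-Pearson, 95%) and cover counting error only.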

Additional observations from a re-analysis of the deposited data

How the results depend on the processing

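In oligodendrocytes the median absolute log2 fold change of the 10 genes was 2.14 and lay between 2.00 and 2.24 under every alternative run, and no gene changed side. The number past an adjusted p of 0.05 there is given as a description. It was 5 in edgeR without a block (0.103% of all genes) and 10 with the block (4.35%). In DESeq2 it was 10 (0.61%), and without the filter 10 (0.559%). After removing nuclei with markers of other cell types it was 4, with no share over all genes at hand. It fell with a wild-type library left out and rose with a TRα1+m library left out, as did the calls over all genes. The cause was not tested. The marker removal took out most oligodendrocyte nuclei, 808 to 1360 per library. It took out 474 of 531 and 390 of 422 OPC nuclei in wild type, and 615 of 679 and 402 of 478 in TRα1+m. Arsg ranged from -2.12 (without TRα1+m 2) to -1.24 and Myrip from 2.61 to 3.51.

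With the repeat as a block, which pairs the libraries, calls for the listed genes in the sub-clusters went from 0 to 4 and those for their relatives from 0 to 5, and outside oligodendrocytes the block changed no other call of the listed genes. With TRα1+m 1 left out, Nckap5 in the oxytocin and vasopressin sub-cluster was at a log2 fold change of -1.97. There TRα1+m 2 held 12 UMIs and the other libraries 76 to 87. A lone library was assumed to vary like the other genotype, so calls with a library left out are not counted here. Without the filter 1 relative passed, where 0.559% of all genes did. Repeat calls went to 0 in DESeq2 in oligodendrocytes (5.07% of all genes with an adjusted p) and OPCs (3.68%). They also went to 0 in OPCs after the marker removal, which left few OPC nuclei, with no share over all genes at hand. No repeat effect could be fitted with a library left out.

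Effects near 0 changed side. In Neurons_1, Dpyd was at -0.0023 with RLE factors, -0.0024 without the filter and -0.0023 in DESeq2. After the marker removal, which left few OPC nuclei, OPC values were 0.12 for Dpyd, 0.18 for Gab2 and 0.21 for Kif13b. With a library left out, log2 fold changes in Neurons_1 ran from -0.016 to 0.017 for Dpyd, -0.52 to 0.29 for Etv1, -0.14 to 0.064 for Kif13b, -0.041 to 0.43 for Arhgap15 and -0.21 to 0.21 for Nckap5. In astrocytes they ran from -0.18 to 0.00027 for Kif13b, -0.011 to 0.10 for Dpyd, -0.29 to 0.053 for Tmem117 and -0.15 to 0.39 for Myrip. In OPCs the ranges were -0.19 to 0.18 for Myrip, -0.29 to 0.24 for Kif13b, -0.67 to 0.38 for Arsg, -0.37 to 0.35 for Etv1 and -0.071 to 0.31 for Nckap5. In microglia and macrophages they were -0.32 to 0.087 for Kif13b, -0.38 to 0.50 for Arhgap15, -0.065 to 0.13 for Gab2, -0.024 to 0.53 for Arsg, -0.59 to 0.074 for Tmem117, -1.13 to 0.56 for Myrip, -0.12 to 0.49 for Nckap5 and -0.11 to 0.44 for Dpyd. None of these passed the test under any alternative run.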
